A study of Homo sapiens with 10 samples.

Results

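Keratins are the intermediate filament proteins of epithelial cells. The 47 keratin genes described here are those with a symbol of KRT, a number and at most 1 letter, with pseudogenes and keratin-associated protein genes left out, among 14884 named genes on the arrays. Another 8 keratin genes, KRT6A, KRT6B, KRT17, KRT34, KRT81, KRT82, KRT86 and KRT222, were not analysed here. RNA came from MCF10A, an immortalised, non-tumorigenic human breast epithelial line, and was measured on 10 Affymetrix arrays. H2A.X-KO cells, on 5 arrays, had been knocked out for the gene of H2A.X, a form of histone H2A that becomes phosphorylated near DNA breaks. WT cells, on the other 5 arrays, were the parental line. Cells of both groups grew in the same DMEM/F12 medium with horse serum, hydrocortisone, EGF, cholera toxin and insulin, and were harvested after 48 h. The labels number the arrays 1 to 5 in each group without saying whether these are separate cultures or 1 or several knockout clones, so p-values reflect the spread among these arrays only, which may be technical. The H2A.X gene itself was not analysed here, so group membership comes from the labels alone.

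A keratin filament is built from pairs of a type I (acidic) and a type II (basic to neutral) protein. Type I genes lie together on chromosome 17 and type II genes on chromosome 12, where the type I gene KRT18 sits beside KRT8 at the end of the type II cluster. Stratified epithelia make KRT5 with KRT14 or KRT15 in their basal layer and switch to pairs such as KRT1 with KRT10 above it. Wounded or activated keratinocytes make KRT6 with KRT16 and KRT17, simple and luminal epithelia make KRT8 with KRT18, KRT7 and KRT19, and hair follicles use their own sheath and shaft keratins. In the mammary gland KRT5 and KRT14 mark the basal and myoepithelial layer, and KRT8, KRT18 and KRT19 the luminal layer.

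Signals are on the log2 scale as deposited, and a level below 5.49, the median of all gene means, is called dim. Array medians lay between 4.26 and 4.35. Arrays of the same group correlated at 0.991 to 0.996 across the 14884 genes, and arrays of different groups at 0.975 to 0.979. H2A.X-KO replicate 1 stood apart on the second principal component (7.53% of the variance), at 20.2 against -9.47 to -2.52 for the other H2A.X-KO arrays. Several epithelial genes were bright in both groups. KRT5, KRT7, KRT8, KRT14, KRT16 and KRT18 lay above the median gene in each, as did EPCAM, an epithelial adhesion gene, at 6.35 ± 0.25 in H2A.X-KO cells and 8.49 ± 0.05 in WT cells (SD, n = 5 each). Differences are H2A.X-KO minus WT on the log2 scale, each from limma fitted over all 14884 genes, with Benjamini-Hochberg adjustment over all of them. A gene that passed, at an adjusted p under 0.05, is said to rise or fall. By this test EPCAM fell by 2.14 (adjusted p = 6.97e-09), with every H2A.X-KO array below every WT array. The luminal keratin KRT19 was dim in both groups.

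Basal keratins rose in H2A.X-KO cells, while KRT18 of simple epithelia and the type II keratin KRT80 fell. Of the 47 keratin genes, 6 rose and 2 fell, or 17.02% in either direction, against 34.3% of all genes tested, 15.3% of which rose and 19.0% of which fell. Most keratin genes were dim. Only 12 of the 47 lay above the median gene in at least 1 group, and 7 of these passed, or 58.3%, against 55.9% of all genes above it. KRT15 and KRT31 counted among the 12 through H2A.X-KO cells alone and KRT80 and KRT37 through WT cells alone. The other 35 ranged from -0.16 to 0.31, and 1 of them passed. For 5 keratin genes every H2A.X-KO array lay above every WT array and for 2 every one lay below, against 28.2% of all genes in either direction. By size, 3 keratin genes rose at least 2-fold, against 1.31% of all genes, and 1 fell at least 2-fold, against 1.50% (2.81% in either direction). The median difference of the 47 genes was 0.09, and that of all genes was 0.00. Values of bulk RNA cannot tell a change in the share of cells that express a gene from a change in RNA per cell.

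**Figure D1:**
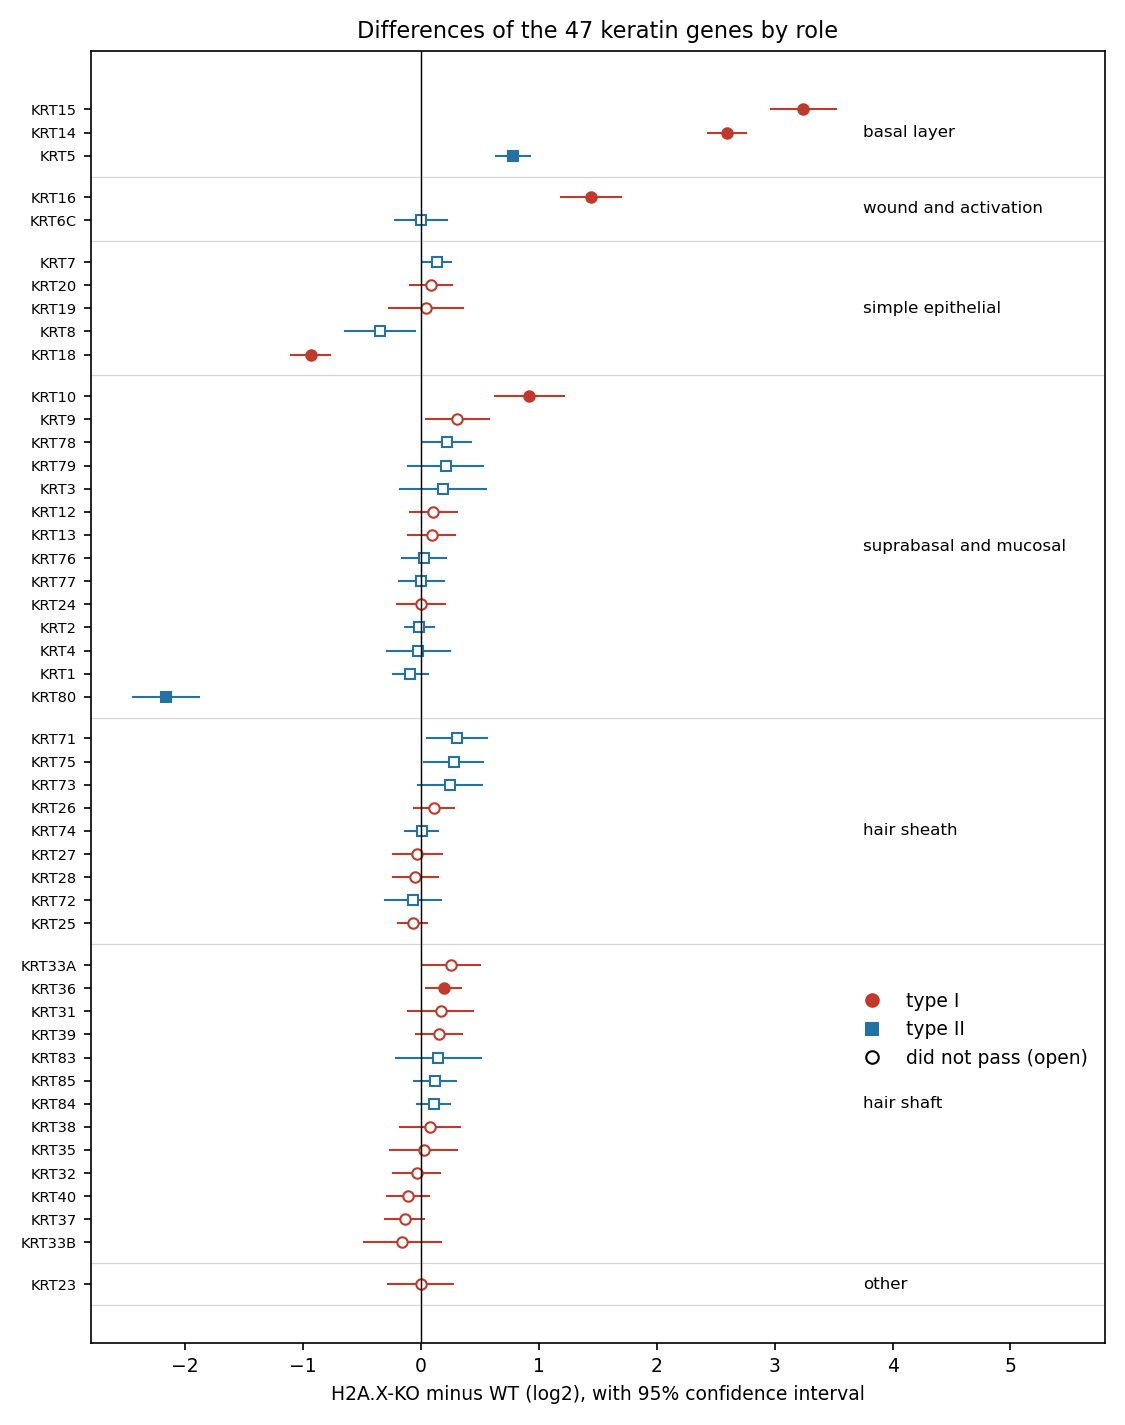
Differences of the 47 keratin genes, H2A.X-KO minus WT on the log2 scale, with 95% confidence intervals from limma, grouped by role. Circles are type I and squares type II genes, and filled symbols passed the test: KRT15 (3.24), KRT14 (2.59), KRT16 (1.44), KRT10 (0.92), KRT5 (0.78) and KRT36 (0.19) on the right, KRT18 (-0.94) and KRT80 (-2.16) on the left.

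All 3 basal layer keratins rose, against 15.3% of all genes. KRT14, the main type I keratin of basal cells, had signals of 10.70, 10.84, 10.90, 10.82 and 10.98 on H2A.X-KO arrays 1 to 5, against 8.32, 8.17, 8.42, 8.30 and 8.07 on WT arrays 1 to 5. The H2A.X-KO arrays lay far above the WT arrays, with no overlap. The difference was 2.59 ± 0.08 (SE), 6.04-fold, with a 95% confidence interval of 2.43 to 2.76 (adjusted p = 1.11e-10).

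KRT15, a type I keratin of basal cells that marks stem-like cells of the hair follicle bulge, had the largest difference of the 47. Its signals were 8.08, 8.50, 8.40, 8.28 and 8.56 on H2A.X-KO arrays and 5.32, 4.70, 5.18, 5.37 and 5.04 on WT arrays. Every WT array was dim for KRT15 and every H2A.X-KO array was bright. The difference was 3.24 ± 0.13 (SE), 9.46-fold (adjusted p = 1.27e-09), and this fold is uncertain because the WT signals were dim.

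KRT5, the type II partner of both, rose by less. It was at 10.41, 10.33, 10.35, 10.17 and 10.47 on H2A.X-KO arrays and at 9.53, 9.61, 9.67, 9.44 and 9.58 on WT arrays. The groups did not overlap, and KRT5 was bright on all 10 arrays. The difference was 0.78 ± 0.07 (SE), 1.72-fold (adjusted p = 1.28e-06).

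Of the wound and activation keratins, KRT16 and KRT6C were measured. KRT16, a type I keratin induced in injured skin, had signals of 8.13, 8.24, 8.42, 8.27 and 8.49 on H2A.X-KO arrays and 6.74, 6.50, 6.92, 7.20 and 6.97 on WT arrays. The groups did not overlap. The rise was 1.44 ± 0.12 (SE), 2.72-fold (adjusted p = 7.14e-07). KRT6C, 1 of the near-identical KRT6 genes, was dim in both groups at 2.34 ± 0.19 in H2A.X-KO cells and 2.34 ± 0.16 in WT cells, with a difference of 0.00 (adjusted p = 0.996). Probe sets named for 2 pseudogenes of KRT16 rose as well, KRT16P2 by 1.57 (adjusted p = 9.85e-08) and KRT16P3 by 0.75 (adjusted p = 0.00685). KRT16P2 was bright, at 9.95 in H2A.X-KO cells and 8.38 in WT cells, with no overlap. KRT16P3 was at 5.49 in H2A.X-KO cells and a dim 4.74 in WT cells, and its groups overlapped. KRT16 and these pseudogenes are near-identical in sequence, and which of them gave the signal cannot be told from these values. The probe sets of KRT17P5, KRT18P55, KRT19P2, KRT42P and KRT8P41, pseudogenes of other keratins, ranged from -0.07 to 0.03 and did not pass.

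**Figure D2:**
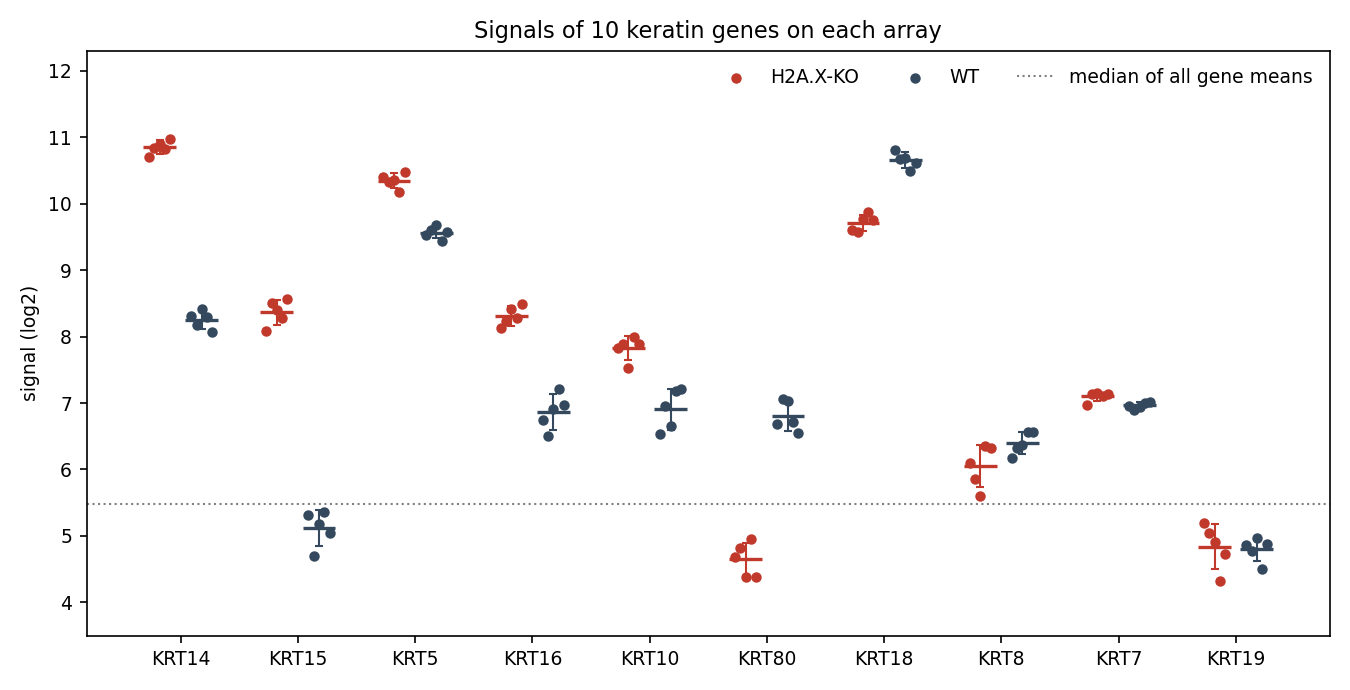
Signals (log2) of 10 keratin genes on each array, H2A.X-KO left of WT for each gene, with points for arrays, horizontal lines for group means and bars for SD (n = 5 each). Groups are separate for KRT14, KRT15, KRT5, KRT16, KRT10, KRT80 and KRT18, and overlap for KRT8, KRT7 and KRT19. The dotted line at 5.49 is the median of all gene means, and heights of different genes cannot be set against each other.

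Among 5 simple epithelial keratins, 1 fell, or 20%, against 19.0% of all genes, and 4 did not pass. KRT18, the type I keratin of luminal cells, had signals of 9.61, 9.58, 9.77, 9.87 and 9.75 on H2A.X-KO arrays and 10.81, 10.67, 10.68, 10.49 and 10.61 on WT arrays. All H2A.X-KO arrays lay below all WT arrays. The difference was -0.94 ± 0.08 (SE), 1.91-fold lower (adjusted p = 6.67e-07).

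This KRT18 value came from the brighter of 2 probe sets named KRT18, 16938654. The 20 named probe sets nearest to it in number all belong to genes of chromosome 3, whereas KRT18 lies on chromosome 12. The other, 16751554, has 20 neighbours by number that are all on chromosome 12. It was dimmer, at 6.34 ± 0.13 in H2A.X-KO cells and 7.06 ± 0.13 in WT cells, and differed in the same direction by -0.73 ± 0.08 (SE, adjusted p = 8.41e-06). KRT18 has many pseudogenes, and a signal from them cannot be told apart from that of the gene on the brighter probe set.

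KRT8, the type II partner of KRT18, had signals of 6.09, 5.86, 5.60, 6.36 and 6.32 on H2A.X-KO arrays and 6.18, 6.33, 6.36, 6.56 and 6.57 on WT arrays. The groups overlapped, with H2A.X-KO replicates 2 and 3 lowest. Its difference of -0.35 ± 0.14 (SE) did not pass (adjusted p = 0.0668), and its 95% confidence interval ran from -0.65 to -0.05. KRT8 passed as a fall under 6 of 16 other settings, given in the closing section.

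KRT7, a type II keratin of ductal and glandular cells, was at 6.98, 7.14, 7.15, 7.10 and 7.14 on H2A.X-KO arrays and at 6.96, 6.90, 6.94, 7.0 and 7.02 on WT arrays. Only H2A.X-KO replicate 1 overlapped the WT arrays. The difference of 0.13 ± 0.05 (SE) did not pass (adjusted p = 0.0765) and did without that array (0.17, adjusted p = 0.0228). KRT19, a type I keratin of luminal cells, was dim at 5.19, 5.04, 4.91, 4.32 and 4.72 on H2A.X-KO arrays and 4.86, 4.78, 4.98, 4.50 and 4.87 on WT arrays. Its groups overlapped fully (difference 0.04, 95% confidence interval -0.28 to 0.35, adjusted p = 0.880). KRT20, a keratin of the gut lining, was dim in both groups and differed by 0.09.

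The 14 keratins of suprabasal layers, mucosa and cornea gave 1 rise and 1 fall, or 14.3%, against 34.3% of all genes. Only 2 of the 14 lay above the median gene in at least 1 group. KRT80, a type II keratin of stratified and other epithelia, had signals of 4.69, 4.82, 4.39, 4.95 and 4.39 on H2A.X-KO arrays and 6.68, 7.06, 7.03, 6.72 and 6.55 on WT arrays. It was dim on every H2A.X-KO array and bright on every WT array. The difference was -2.16 ± 0.13 (SE), 4.48-fold lower (adjusted p = 4.77e-08), a fold that is uncertain because the H2A.X-KO signals were dim. KRT10, the type I keratin of cells that leave the basal layer, was at 7.82, 7.89, 7.53, 8.0 and 7.89 on H2A.X-KO arrays and 6.53, 6.95, 6.65, 7.17 and 7.22 on WT arrays. These groups did not overlap either, and WT replicates 1 and 3 were lowest. KRT10 rose by 0.92 ± 0.13 (SE), 1.89-fold (adjusted p = 0.000123).

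KRT1, the type II partner of KRT10, was dim in both groups, at 3.63 ± 0.08 in H2A.X-KO cells and 3.72 ± 0.12 in WT cells (SD, n = 5 each), with a difference of -0.09 (adjusted p = 0.356). The mucosal pair KRT4 and KRT13 differed by -0.02 and 0.09, and the corneal pair KRT3 and KRT12 by 0.19 and 0.10. All 4 were dim and did not pass. The others of this role that did not pass, KRT2, KRT9, KRT24, KRT76, KRT77, KRT78 and KRT79, ranged from -0.01 to 0.31.

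Hair keratins were dim for the most part. Of all genes, 34.3% passed in either direction. Of the 9 sheath keratins, KRT25 to KRT28 and KRT71 to KRT75, 0 passed the limma test (2 at an unadjusted p under 0.05), and differences ran from -0.07 (KRT25) to 0.30 (KRT71). Of these, KRT71 and KRT75 passed under 3 other settings each. Of the 13 shaft keratins, KRT36 rose by 0.19 ± 0.07 (SE, adjusted p = 0.0452), with overlapping groups and a dim signal of 4.65 ± 0.13 in H2A.X-KO cells and 4.46 ± 0.07 in WT cells (SD, n = 5 each). That call ended under 10 of 15 other settings. The other 12 shaft keratins ranged from -0.16 (KRT33B) to 0.26 (KRT33A), among them KRT85, at 5.78 in H2A.X-KO cells and 5.66 in WT cells and the only one above the median gene in both. KRT23, a type I keratin placed in none of these roles, differed by -0.0027.

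Spread between arrays was similar in both groups. The median SD of a keratin gene was 0.18 in H2A.X-KO cells and 0.15 in WT cells, and the highest were 0.38 (KRT3) in H2A.X-KO cells and 0.32 (KRT35) in WT cells. Without H2A.X-KO replicate 1, 6 keratin genes rose and 2 fell, and 7 of the 8 first called were among them. KRT14 then differed by 2.63, KRT15 by 3.31, KRT5 by 0.76, KRT16 by 1.49, KRT10 by 0.92, KRT18 by -0.91 and KRT80 by -2.17, each with an adjusted p of at most 0.000448. KRT36 no longer passed (0.19, adjusted p = 0.0728) and KRT7 did.

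By type, 5 of 26 type I genes rose and 1 fell (median difference 0.08), against 15.3% and 19.0% of all genes. Of 21 type II genes, KRT5 rose and KRT80 fell, with a median of 0.11. Of 6 measured pairs of partners, 4 passed a test of unequal change and 2 did not. Those that passed include KRT10 with KRT1, where KRT1 was dim in both groups. For these pairs the type I signal minus the type II signal was taken on each array, and the groups were compared by an exact two-sided permutation test over all splits of the arrays into 5 and 5, whose smallest p is 0.00794, adjusted over the 6 pairs.

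KRT14 minus KRT5 lay between 0.30 and 0.65 on H2A.X-KO arrays and between -1.50 and -1.14 on WT arrays, so KRT14 rose by 1.82 ± 0.09 (SE) more than KRT5 (exact adjusted p = 0.0159). KRT15 minus KRT5 lay between -2.32 and -1.82 on H2A.X-KO arrays and between -4.91 and -4.07 on WT arrays, a difference of 2.46 ± 0.17 (exact adjusted p = 0.0159). For both pairs every H2A.X-KO array lay above every WT array. KRT10 rose against KRT1 by 1.01 ± 0.18 (SE, exact adjusted p = 0.0159), also with no overlap. KRT1 was below every array median in both groups, so this value mostly restates the rise of KRT10 and does not show how KRT1 behaved.

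KRT18 fell by 0.58 ± 0.18 (SE) more than KRT8 (exact adjusted p = 0.0357), at 3.43 to 4.17 on H2A.X-KO arrays and 3.92 to 4.64 on WT arrays. H2A.X-KO replicate 3 lay inside the WT range. The call ended with the other KRT18 probe set (-0.38, exact adjusted p = 0.155), with the mean of both (-0.48, exact adjusted p = 0.0595) and without any of 7 of the arrays. KRT19 against KRT7 (-0.10 ± 0.19, exact adjusted p = 0.635) and KRT13 against KRT4 (0.11 ± 0.12, exact adjusted p = 0.505) did not pass. Levels of the members of a pair come from different probe sets, so these values show unequal change and not which member is more abundant. For KRT10 with KRT1 not even unequal change of the partners is shown, because KRT1 was too dim.

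**Figure D3:**
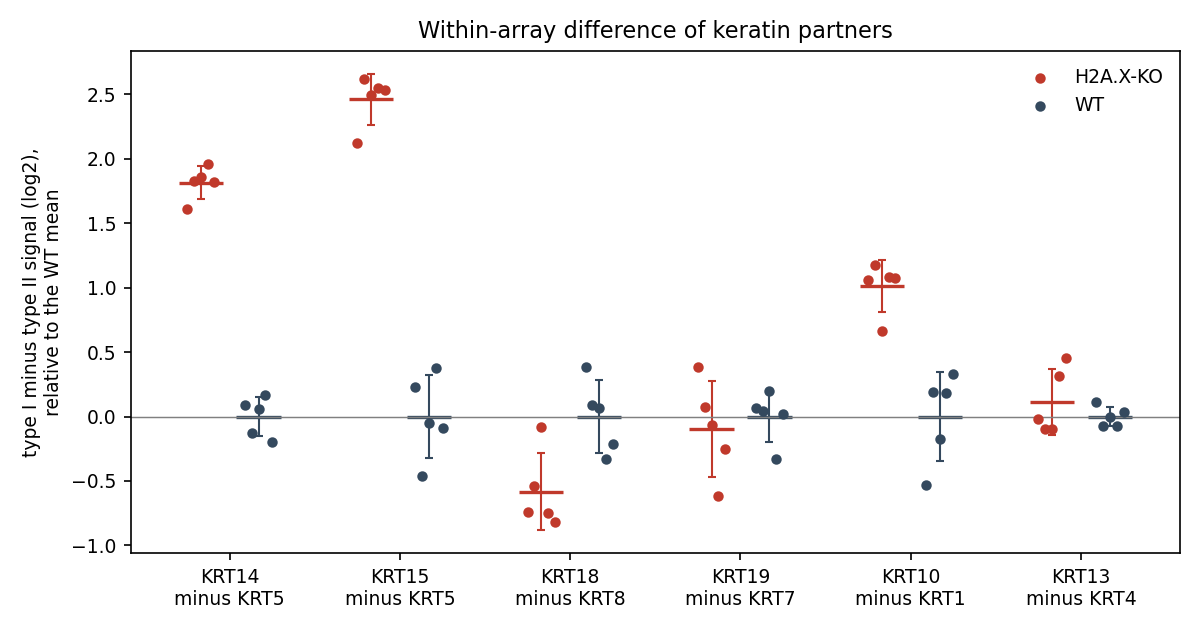
Type I minus type II signal (log2) of 6 keratin pairs on each array, set relative to the WT mean of the pair, with H2A.X-KO left of WT, lines for means and bars for SD (n = 5 each). H2A.X-KO arrays lie above all WT arrays for KRT14 minus KRT5, KRT15 minus KRT5 and KRT10 minus KRT1, and overlap them for the other 3 pairs.

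In gene order, genes that rose on chromosome 17 stood beside dim genes that did not pass. Of 25 keratin genes in that cluster 5 rose and 0 fell in the limma fit (0 also at an unadjusted p under 0.05). Of all genes, 15.3% rose and 19.0% fell. KRT15, KRT14 and KRT16 lie close to its end, and KRT19 (0.04), the noncoding RNA gene LINC00974 (0.28) and KRT9 (0.31), which lie between KRT15 and KRT14, did not pass. All 3 were dim, and LINC00974 was near the threshold (adjusted p = 0.0509), so a rise there could have been missed. KRT10 lies at the other side of the cluster, beside KRT28 (-0.05) and KRT12 (0.10), both dim. Of 29 measured keratin-associated protein genes on chromosome 17, whose products crosslink hair keratins, 2 rose and 0 fell in the limma fit (6 and 2 at an unadjusted p under 0.05), with a median of 0.02. Of 55 on other chromosomes, 2 rose and 1 fell. Nearly all of these genes were dim. Only 1 of the 29 and 6 of the 55 lay above the median gene in at least 1 group, so changes could have been missed.

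Genes that flank the cluster on chromosome 17 were mostly bright. Of 40 non-keratin genes, 20 on each side, 14 rose, against 15.3% of all genes, and 5 fell, against 19.0%, with a median of 0.02. Of the 40, 28 lay above the median gene in at least 1 group. In either direction 47.5% of the 40 passed, against 34.3% of all genes. Among all genes above the median gene 55.9% passed, a share not matched to the 40, some of which were dim. Those that rose included the lipogenic enzyme gene ACLY (1.86), the growth factor gene CSF3 (1.80), the focal adhesion gene TNS4 (1.01) and JUP (0.53), which encodes plakoglobin. Whether the rises of KRT14, KRT15, KRT16 and KRT10 are part of a shift of their chromosome region was not tested.

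On chromosome 12, KRT5 rose, KRT80 and KRT18 fell and 19 of the 22 keratin genes did not pass. So 13.6% of them passed, against 34.3% of all genes. KRT80 is the first measured keratin gene of that cluster and KRT8 and KRT18 the last. The KRT18 value is from the brighter probe set, whose neighbours by number are on chromosome 3, and the other probe set gave -0.73. Of the 40 genes around the cluster, 6 rose, against 15.3% of all genes, and 10 fell, against 19.0%, with a median of 0.01. Of these, 26 lay above the median gene in at least 1 group. In either direction 40% of the 40 passed, against 34.3% of all genes. The share of 55.9% among all genes above the median gene is not matched to these 40, some of which were dim. On the side of KRT80, 2 of 20 rose, TMT1A (1.66) and LETMD1 (0.66), and 7 fell, among them its nearest measured neighbour outside the cluster, ATG101 (-0.78), an autophagy gene. On the side of KRT18, 3 of 20 fell and 4 rose, among them the neighbour EIF4B (0.32), a translation factor gene.

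**Figure D4:**
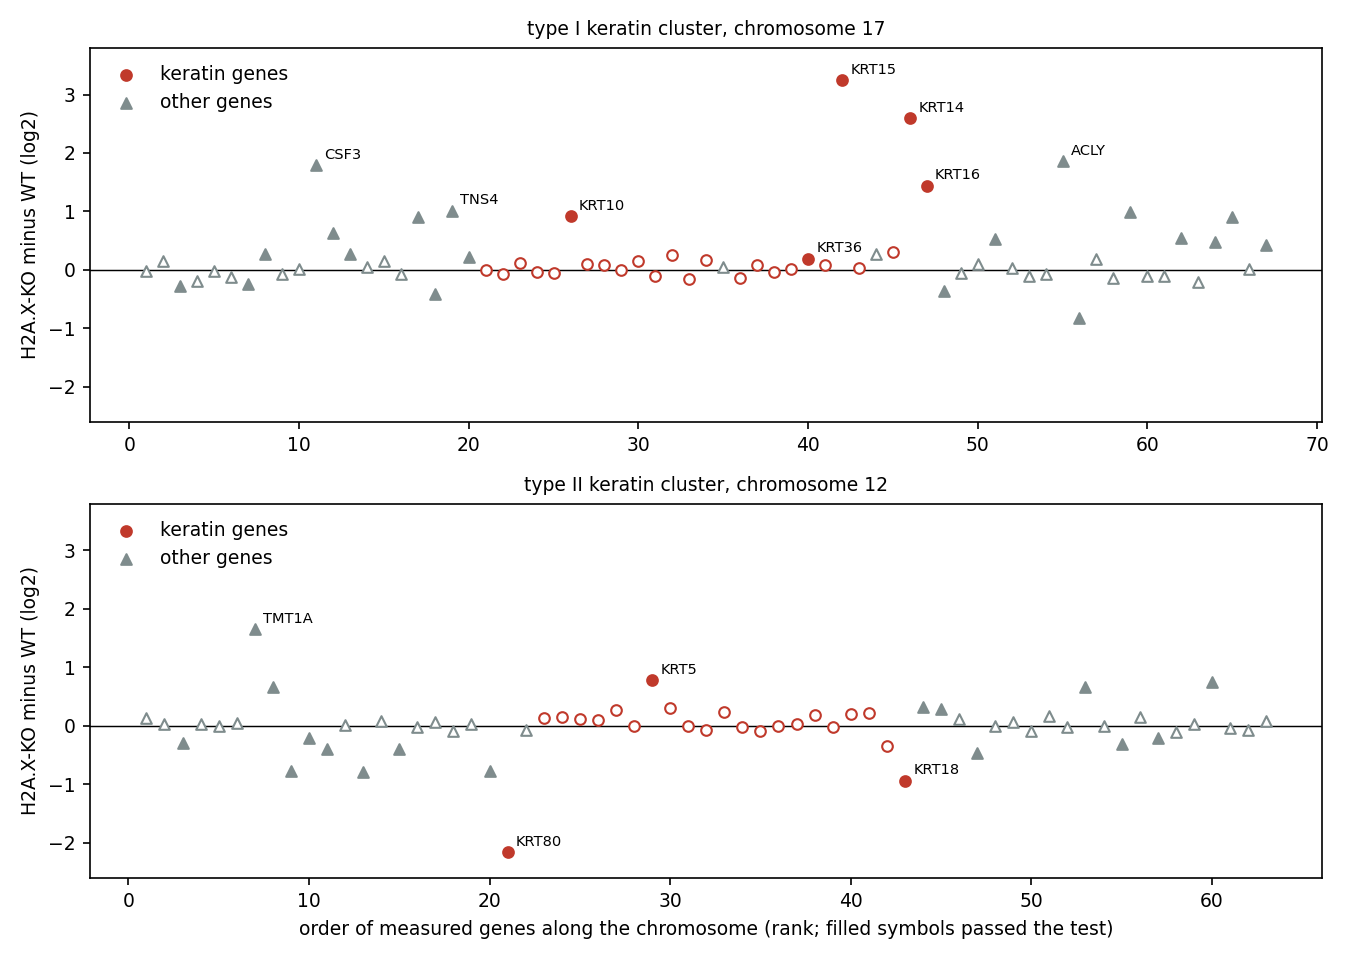
Differences (H2A.X-KO minus WT, log2) in gene order along the type I cluster on chromosome 17 and the type II cluster on chromosome 12, with 20 measured genes on each side and keratin-associated protein genes left out. Circles are keratin genes, triangles other genes and filled symbols passed the test. KRT15 (3.24), KRT14 (2.59) and KRT16 (1.44) stand near the right end of the upper cluster, with open symbols between KRT15 and KRT14, and KRT80 (-2.16) and KRT18 (-0.94) at opposite ends of the lower one. KRT18 is plotted from its brighter probe set, and the other gave -0.73.

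Promoter windows of keratin genes came from the RefSeq promoter table (GRCh38.p14) and run from 250 bases before a transcript's start to 50 after it. With 1 window taken per gene, that start lies inside the annotated gene for KRT8, KRT25, KRT40, KRT73, KRT84 and KRT85. Of the 47 genes 32 had an entry, and KRT14, KRT15, KRT16, KRT18 and KRT80 were not among them. The letters TATAAA, the core of the TATA box, were found on either strand in 19 of 32 keratin promoters (59.4%), against 12.1% of 27305 promoters of all genes. The match began 27 to 31 bases before the start, on the gene's strand, in 15 keratin promoters (46.9%) and in 2.04% of all promoters. That distance was chosen after the matches were seen. This held for 12 of 19 type I and 3 of 13 type II promoters, and by role for 7 of 12 hair shaft, 4 of 8 hair sheath, 4 of 9 suprabasal and mucosal, 0 of 2 simple epithelial and 0 of 1 basal layer promoters. It was found for KRT10, 1 of the 3 promoters of genes that rose, and in 14 of the 29 whose genes did not pass. A GC box, GGGCGG on either strand, was in 5 keratin promoters (15.6%), against 43.8% of all promoters. An AP-1 site, TGANTCA, was in 0, against 7.91%. No match of 1 motif overlapped a match of another in these promoters, and a match is a description of letters only.

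The stretch from 45 to 16 bases before the start is printed 5′ to 3′ on the gene's strand, all minus strands of GRCh38.p14, with TATAAA in capitals. The first 5 were picked because they hold the box in this stretch, at least 1 from each role that has it. KRT5, a basal keratin that rose, was picked because it lacks the exact letters TATAAA, though the similar letters gataaa stand there. The box stood elsewhere in the windows of KRT39, KRT73, KRT26 and KRT84. KRT10 (chr17:40822630-40822659) and KRT24 (chr17:40703768-40703797) are type I suprabasal, KRT76 (chr12:52777361-52777390) type II mucosal, KRT71 (chr12:52553161-52553190) type II sheath and KRT31 (chr17:41397624-41397653) type I shaft. KRT5 (chr12:52520410-52520439) has no TATAAA there.
KRT10: acacaccctctcagtaTATAAAggcttgtc
KRT24: caccctcgaagtgtgtaTATAAAggccaaa
KRT76: gccaaactccctgttaTATAAAggccagtc
KRT71: ccccagtgccaagcacaTATAAAggcacct
KRT31: accctctgcagtgggaTATAAAtgctccct
KRT5: cccagttctggaagggataaaaagggggca

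The whole windows of KRT10 (chr17:40822565-40822864, minus strand) and KRT5 (chr12:52520345-52520644, minus strand), both of which rose, follow, with motif matches in capitals. KRT10 holds a single TATA box and KRT5 none of the 3 motifs as spelled here.
KRT10 window: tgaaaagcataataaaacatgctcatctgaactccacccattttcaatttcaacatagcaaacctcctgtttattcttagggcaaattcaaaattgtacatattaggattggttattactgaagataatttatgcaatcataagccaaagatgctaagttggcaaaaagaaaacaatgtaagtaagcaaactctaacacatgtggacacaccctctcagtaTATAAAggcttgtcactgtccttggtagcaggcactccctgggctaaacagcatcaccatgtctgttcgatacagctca
KRT5 window: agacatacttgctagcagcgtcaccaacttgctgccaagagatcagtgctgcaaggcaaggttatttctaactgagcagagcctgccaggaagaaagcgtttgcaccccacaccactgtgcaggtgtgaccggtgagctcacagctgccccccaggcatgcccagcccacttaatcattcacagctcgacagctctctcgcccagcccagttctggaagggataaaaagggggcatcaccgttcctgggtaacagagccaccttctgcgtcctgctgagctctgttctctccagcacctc

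Genes that anchor keratin filaments were mostly bright. Of 12 plakin and desmosomal plaque genes, 6 rose, 2 fell and 4 did not pass (median difference 0.21). So 66.7% of the 12 passed in either direction. Of the 12, 11 lay above the median gene in at least 1 group, where 55.9% of all genes passed. Of the 7726 genes there, 1881 rose and 2435 fell. The cytolinker gene DST rose by 0.58, JUP by 0.53, DSP, which encodes the plaque protein desmoplakin, by 0.53, and PPL, EVPL and PLEC by 0.46, 0.43 and 0.34. EPPK1, which encodes epiplakin, a keratin-binding plakin, was at 4.97 ± 0.20 in H2A.X-KO cells and 6.43 ± 0.05 in WT cells (SD, n = 5 each) and fell by 1.46 (adjusted p = 4.57e-08). MACF1, a plakin that links actin and microtubules, fell by 0.21. The plakophilin genes PKP1, PKP2, PKP3 and PKP4 ranged from -0.14 to 0.07 and did not pass. Of 7 hemidesmosome genes CD151 alone was measured (-0.17, adjusted p = 0.0744).

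Of 18 other intermediate filament genes listed, 10 were measured, and 6 of these lay above the median gene in at least 1 group. LMNB1, which encodes a lamin of the nuclear envelope, rose by 0.71 (adjusted p = 2.23e-06), 9 did not pass and the median was 0.04. So 10% passed, against 34.3% of all genes. VIM, which encodes vimentin, the filament protein of mesenchymal cells, was at 8.65 ± 0.29 in H2A.X-KO cells and 8.63 ± 0.20 in WT cells (SD, n = 5 each), with a difference of 0.03 (adjusted p = 0.906). Of 10 measured cornified envelope genes, which act with KRT1 and KRT10 in outer skin layers, CNFN rose by 0.26, 9 did not pass and the median was 0.13. This too is 10%, against 34.3% of all genes. Only 2 of these 10 lay above the median gene in at least 1 group, so changes could have been missed.

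Transcription factors known to act on epithelial keratin genes went both ways. Of 17 measured, 2 rose, against 15.3% of all genes, and 5 fell, against 19.0%, with a median of 0.03. EHF, an ETS factor of epithelia, rose by 3.05 (8.31 in H2A.X-KO cells, a dim 5.26 in WT cells), and the grainyhead factor gene GRHL3 rose by 0.82. The Krüppel-like factor genes KLF4 and KLF5 fell by 0.48 and 0.40, and SOX15, GRHL1 and SP1 by 0.35, 0.31 and 0.20.

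Markers of other cell types were measured in part. Of all genes, 34.3% passed in either direction. Among the measured markers 40% of luminal, 25% of myoepithelial, 50% of fibroblast, 20% of endothelial and 100% of immune ones passed. These lists are short, with 3 to 10 genes each. Of 10 luminal markers measured, CD24 rose by 1.94, while XBP1 (-1.87), GATA3 (-0.44) and FOXA1 (-0.29, dim, adjusted p = 0.0378) fell, with a list mean of 5.57 to 5.69 on H2A.X-KO arrays and 5.59 to 5.73 on WT arrays. Of 4 myoepithelial markers, CALD1 rose by 0.40, and the list mean was 5.24 to 5.43 on H2A.X-KO arrays and 4.96 to 5.31 on WT arrays. MYLK and TAGLN, 2 contractile markers, were dim in both groups. Of 4 fibroblast markers, DCN rose by 2.06 from a dim 4.06 in WT cells. DPT, dim in both groups and with overlapping arrays, fell by 0.38. List means were 4.53 to 4.76 on H2A.X-KO arrays and 4.07 to 4.34 on WT arrays, but the median difference was only 0.01. LUM and THY1 were dim in both groups. Of 5 endothelial markers KDR alone passed and rose by 1.69 from a dim 4.69 in WT cells. List means were 4.22 to 4.44 on H2A.X-KO arrays and 3.89 to 3.99 on WT arrays, but the median difference was 0.09. PECAM1 and VWF were dim in both groups. Of 3 immune markers CSF1R rose by 0.72 and CD14 (-0.76) and CD68 (-0.37) fell, with list means of 6.28 to 6.43 on H2A.X-KO arrays and 6.42 to 6.53 on WT arrays. The part of other cell types in the keratin differences was not tested.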

How the data were processed

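Each value is the authors' deposited log2 signal of 1 probe set on 1 array, from 1.13 to 13.87, a range that shows the log scale. Labelled RNA came from 1 ug of total RNA per the labels' protocols. The submitters' processing notes name Affymetrix Expression Console and Partek 6.6, and their order, the summarisation and the genome build are not given. All arrays have nearly the same median, so a change of all transcripts at once could not be seen.

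Of 53617 probe sets, 16098 had 1 gene symbol in the platform annotation, 0 several and 37519 none. Symbols were updated by Entrez identifier in the RefSeq table of GRCh38.p14 (all 16098 matched). The probe set with the highest mean stood for each of 14884 genes. Groups were compared with limma 3.58.1 (lmFit, eBayes) under R 4.3.3, with no covariate, further normalisation or filter. On simulated data of 14884 genes, 82% of genes changed by 0.5 and 98% of those changed by 1 were recovered, and 14 unchanged genes were called. The simulation used independent normal noise and changed 100 genes by each amount. In the real data 34.3% of genes passed, so these rates need not hold for them. Python 3.11.15 ran the exact permutation tests. The number of arrays limits precision, with a median standard error of 0.08.

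The members, lists, pairs and motifs were chosen with earlier results of these data known. Array values are given for common mammary and basal keratins and for members that passed with an absolute difference of at least 0.5. Up to 4 genes that passed were to be named per partner or marker list, ranked by absolute difference; further genes, and those beside the clusters, were chosen after their values were seen. Alternatives were quantile normalisation, array centring, no dim genes, the mean of a gene's probe sets, an intensity trend, a replicate block and leaving out each array. The other KRT18 probe set was added after seeing the data, as were alternatives for the flanking genes and lists.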

Additional observations from a re-analysis of the deposited data

Results flagged for a closer look

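Among 106 sets of 5 arrays, for 47 keratin genes and 6 pairs in each group, 8 held an array far from the other 4 (gap over range above 0.71), and chance gives about 1 set in 20. H2A.X-KO replicate 1 was that array in 4 of the 8. It was high for KRT23 (4.65, against 4.0 to 4.17 on the other H2A.X-KO arrays) and KRT78 (4.64, against 4.12 to 4.27). It was low for KRT7 (6.98, against 7.10 to 7.15) and for KRT15 minus KRT5 (-2.32, against -1.95 to -1.82). H2A.X-KO replicate 3 was low for KRT10 minus KRT1 (3.85, against 4.24 to 4.36). WT replicate 5 was low for KRT73 (2.22, against 2.68 to 2.74 on the other WT arrays) and KRT9 (3.34, against 3.79 to 3.94), and WT replicate 1 was high for KRT37 (5.71, against 5.38 to 5.47).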

How the results depend on the processing

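Rises of KRT14, KRT15, KRT5, KRT16 and KRT10 and falls of KRT18 and KRT80 passed under every alternative run. The rise of KRT36 ended under 10, with adjusted p up to 0.104 (differences 0.14 to 0.22). Of 39 keratin genes that did not pass, 7 did under some alternative: KRT33A, KRT7, KRT71, KRT75, KRT78, KRT8 and KRT9. KRT8 did so without dim genes (adjusted p = 0.0335), with a trend (0.0382), with the block (0.0219), and without H2A.X-KO replicate 4 (0.0287), H2A.X-KO replicate 5 (0.0361) or WT replicate 1 (0.0488). Keratin genes called higher numbered 5 to 8 and lower 2 to 3, and all genes called 4705 to 5248.

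The unequal fall of KRT18 and KRT8 did not pass with the mean of probe sets (-0.48) or the other KRT18 probe set (-0.38), and ran from -0.71 to -0.49 with an array left out. It ended without H2A.X-KO replicate 1, 2, 4 or 5 or WT replicate 1, 2 or 3 (exact adjusted p = 0.0595 each). KRT19 against KRT7 ran from -0.22 to 0.03 with an array left out, and was 0.035 without H2A.X-KO replicate 4.

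Lists moved by 1 gene at most. Without dim genes there was 1 hemidesmosome fall, 2 other filament rises, 0 fibroblast falls and 1 immune fall. With a trend there was 1 hemidesmosome fall, 2 other filament rises and 2 cornified envelope rises, and with quantile normalisation 2 other filament rises. With an array left out, other filament rises numbered 1 to 2 and falls 0 to 1, and cornified envelope, myoepithelial and luminal rises 1 to 2 each. Luminal falls numbered 2, in place of 3, without dim genes, with the block and without H2A.X-KO replicate 1, 2, 3 or 5 or WT replicate 2, 3 or 5.

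With the replicate block, 8 keratin genes were called higher and 3 lower, 4972 genes were called in all, and there was 1 other filament fall and 2 luminal rises. Same-numbered arrays deviated together with correlations of -0.01 to 0.20, and 1 of 5 H2A.X-KO arrays was closest to its own number, so the arrays are taken to share only a number. Dim signals limit what can be seen for 35 of the 47 genes.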
